A study of Saccharomyces cerevisiae with 36 samples.

Results

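Budding yeast genes that still carry only a systematic name and had higher RNA after amino acid withdrawal are described here across 36 arrays. The genes were chosen by their values in wild-type total RNA: a gene entered the set when its symbol was a systematic name and its mean level in total RNA of starved wild-type cells exceeded that of fed wild-type cells by 1 or more on the log2 scale. There were 67 such genes, which is 15.4% of the 434 systematically named genes and 1.26% of all 5338 genes measured. Among the 4904 genes with a standard symbol, 443 (9.03%) met the same condition.

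A systematic name records the chromosome, the arm, the order along the arm and the strand, and a gene keeps it as its only name until it is given a standard name. Yeast cells that run out of amino acids are known to slow general translation initiation while the activator Gcn4 is translated more and switches on biosynthetic genes. MSN5 and MTR10 encode carriers of the importin beta family: Msn5 moves proteins and RNA across the nuclear envelope, and Mtr10 imports the mRNA-binding protein Npl3 and takes part in tRNA import.

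The study compared an msn5 deletion strain, an mtr10 deletion strain and BY4742 wild-type cells, each after 30 min without amino acids (starved) or in synthetic medium with amino acids (fed). From each of these, RNA of pooled polysome fractions, RNA of pooled non-polysome fractions and total RNA were hybridised to Affymetrix yeast arrays, giving 18 groups of 2 arrays that the labels call biological replicates. Cells of all groups were in early log phase before the cultures were divided, and all received cycloheximide, which holds ribosomes on mRNA, before harvest. BY4742 itself carries deletions of HIS3, LEU2, LYS2 and URA3 as background knowledge; the labels give neither the parent nor the number of clones of the deletion strains. They also do not say whether the polysome, non-polysome and total RNA of a group came from the same cultures. With 2 arrays a group, the number of arrays limits the precision of every value.

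Levels are log2 RMA signals as deposited, a scale on which a difference of 1 is a 2-fold change. RMA gives each array the same overall distribution, so each level is relative to the other transcripts of that array. In bulk cultures a transcript carried by more cells and more RNA per cell cannot be told apart. The deleted genes checked the strain labels. MSN5 read 3.64 to 4.75 on 10 msn5 arrays and 6.85 and 7.23 on the msn5 fed non-polysome arrays, against 10.94 to 12.57 on the 24 arrays of the other strains. MTR10 read 3.64 to 4.67 on 10 mtr10 arrays and 5.17 and 5.48 on the mtr10 fed non-polysome arrays, against 9.99 to 11.09 on the other 24. Both deleted genes were thus low in their own strain on every array, and least so in the fed non-polysome groups. Those groups of the mutants enter none of the tests below except through the shared estimate of spread. They do enter the untested non-polysome differences of the mutants and the profiles over group means.

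In wild-type total RNA, the comparison that chose them, the 67 genes differed between starved and fed cells by a median of 1.48, from 1.00 to 4.45, while the median of all genes was -0.03. These values are given as a description with no test. The starved arrays lay above the fed arrays without overlap for all 67, a condition the choice nearly guarantees. The share of all genes without overlap was not counted. By another measure, the limma fit at an adjusted p under 0.05, 31.4% of all genes were higher. The difference was 2 or more for 15 genes and 3 or more for 4. The last genes inside the threshold were YOR019W at 1.02, YPR003C at 1.01 and YMR181C at 1.00. The first outside it were YNL277W-A at 0.99, YGR174W-A at 0.98 and YKL091C at 0.98.

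**Figure D1:**
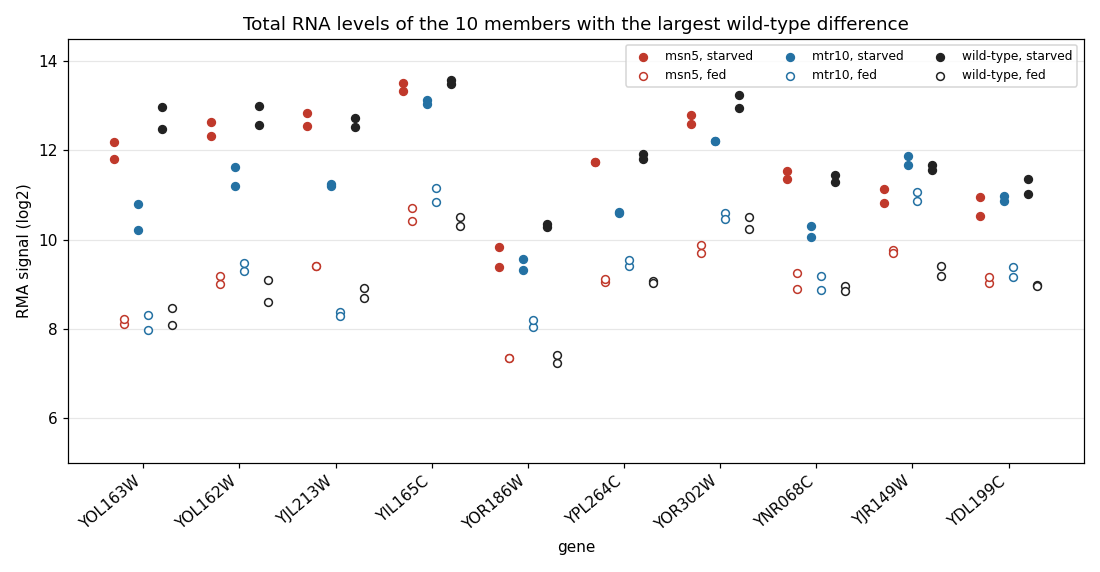
Log2 RMA level in total RNA of the 10 genes with the largest wild-type difference, with genes along the horizontal axis and each point an array: msn5 in red, mtr10 in blue and wild-type in black, filled when starved and open when fed. Starved arrays lie above fed arrays for all 10 genes in all 3 strains; YOL163W reads 12.97 and 12.48 on the starved wild-type arrays and 8.08 and 8.47 on the fed ones.

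The genes with the largest difference were the neighbours YOL163W and YOL162W on chromosome XV, whose products resemble the Dal5 subfamily of membrane permeases. YOL163W read 12.97 and 12.48 in starved wild-type total RNA, against 8.08 and 8.47 in fed cells, a 21.8-fold difference of the means. YOL162W averaged 12.78 ± 0.30 in starved wild-type cells, against 8.85 ± 0.34 in fed cells (SD, n = 2 each), or 15.3-fold. In both genes the starved and fed arrays stood far apart compared with the gap between replicates. YJL213W on chromosome X followed with 12.72 and 12.53 in starved cells, against 8.70 and 8.91 in fed cells, a 14.1-fold difference. YIL165C on chromosome IX, which together with its neighbour NIT1 forms a single nitrilase gene in other strains, read 13.58 and 13.50 in starved cells, against 10.30 and 10.51 in fed cells. YOR186W read 10.28 and 10.36 in starved cells, against 7.42 and 7.25 in fed cells. The remaining 5 of the 10 differed by 2.81 (YPL264C), 2.72 (YOR302W), 2.47 (YNR068C), 2.33 (YJR149W) and 2.21 (YDL199C, a putative transporter of the sugar porter family).

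The mutant strains provided arrays that took no part in choosing the genes. In msn5 total RNA, 66 of the 67 genes rose on starvation and none fell at an adjusted p under 0.05 (limma, Benjamini-Hochberg over all 5338 genes), against 28.8% of all genes that rose and 32.2% that fell there. Their median difference was 1.28 in msn5 cells, where the median of all genes was -0.03. YOL163W read 11.80 and 12.20 in starved msn5 cells, against 8.10 and 8.23 in fed msn5 cells (difference 3.83 ± 0.44, SE; adjusted p = 2.16e-07). YOL162W read 12.33 and 12.63 in starved cells, against 9.18 and 9.01 in fed cells (3.38 ± 0.21, adjusted p = 1.69e-11). For both permease-like genes every starved msn5 array was above every fed one. YJL213W differed by 3.27 ± 0.17, YOR302W by 2.90 ± 0.29 and YIL165C by 2.87 ± 0.13 in the same comparison. YLR415C was the gene that did not pass, with 7.35 and 7.40 in starved msn5 cells, against 6.98 and 6.78 in fed cells (0.49 ± 0.28, adjusted p = 0.126).

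In mtr10 total RNA, 48 of the 67 genes rose, 1 fell and 18 did not pass the test, against 24.8% of all genes that rose and 23.9% that fell. The median difference was 0.81 for the 67 genes and 0.01 for all genes. Since the genes were chosen for a large wild-type response, a smaller response in another strain is favoured by the choice itself. YJL213W had the largest difference, with 11.25 and 11.21 in starved mtr10 cells, against 8.38 and 8.29 in fed mtr10 cells (2.90 ± 0.17, adjusted p = 4.13e-11). YOL163W read 10.80 and 10.22 in starved mtr10 cells, against 7.98 and 8.32 in fed cells (2.36 ± 0.44, adjusted p = 1.37e-04). Starved and fed arrays stayed apart for both. YIL165C differed by 2.09 ± 0.13, YOL162W by 2.03 ± 0.21 and YOR302W by 1.67 ± 0.29.

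The gene that fell was YHL012W, whose product resembles the UDP-glucose pyrophosphorylase Ugp1. It read 5.40 and 5.49 in starved mtr10 cells, against 5.86 and 5.94 in fed mtr10 cells (-0.46 ± 0.17, adjusted p = 0.0268). In msn5 total RNA the same gene read 8.34 and 8.85 in starved cells, against 7.25 and 7.15 in fed cells, and in wild-type cells 7.99 and 8.07 when starved, against 6.90 and 6.68 when fed. The order of starved and fed arrays was therefore opposite in mtr10 total RNA, where all 4 arrays were also lower than any msn5 or wild-type total RNA array. With MAS5 signals in place of RMA the mtr10 difference was 0.06, and the call was lost when any of the 4 mtr10 total RNA arrays was left out (adjusted p = 0.0628 to 0.123), so that no gene of the set was then called lower. Among the 18 that did not pass, the smallest differences were those of YGL081W (-0.22 ± 0.21), YLR415C (0.00 ± 0.28), YJR079W (0.04 ± 0.19) and YLR125W (0.11 ± 0.20).

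**Figure D2:**
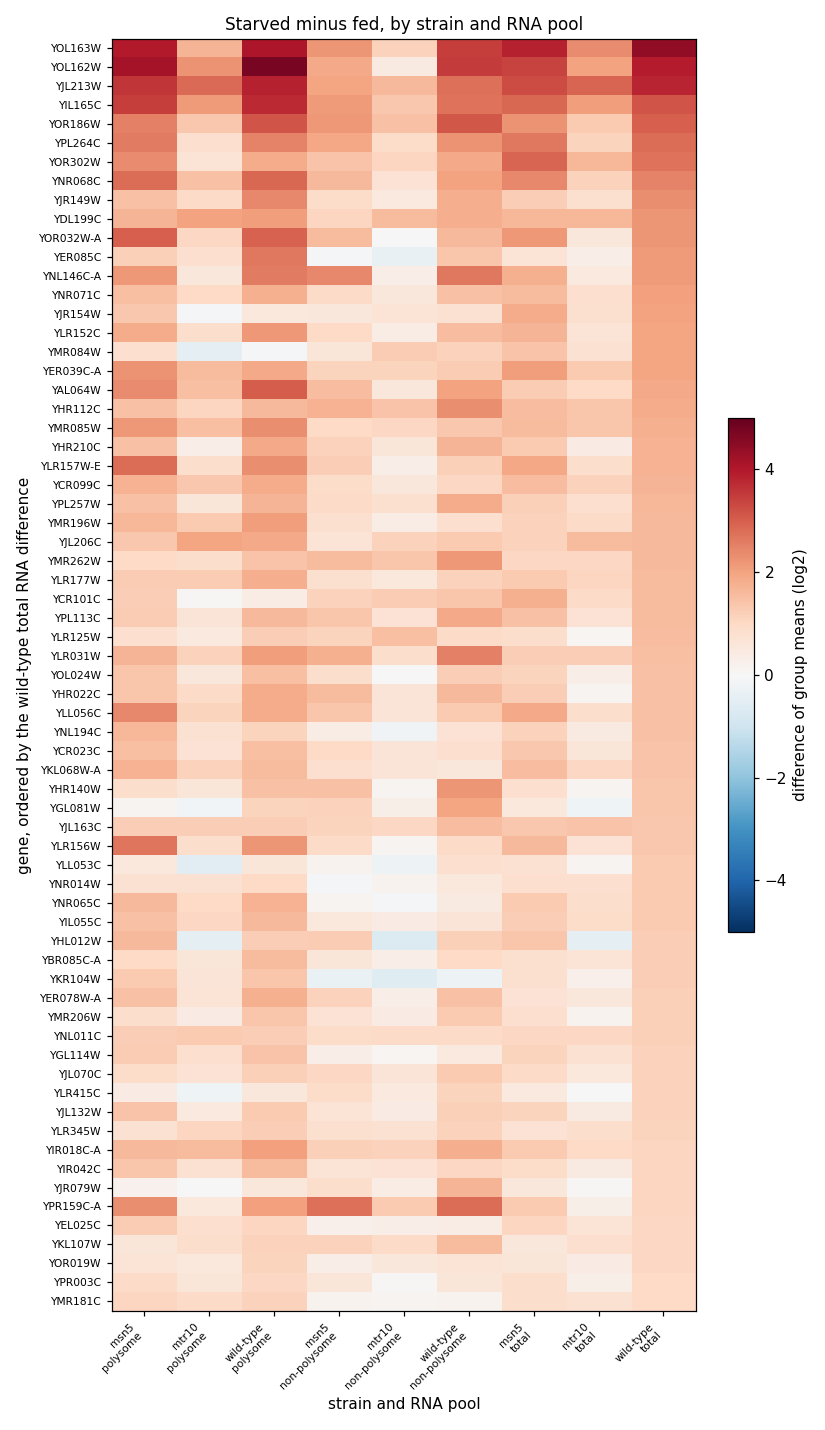
Starved minus fed difference (log2 RMA) of the 67 genes, a row each, in polysome, non-polysome and total RNA of msn5, mtr10 and wild-type cells; rows are ordered by the wild-type total RNA difference, which chose the genes. The median is 1.28 in msn5, 0.81 in mtr10 and 1.48 in wild-type total RNA.

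The responses of the mutants were set against each other on arrays the choice did not use. The starvation difference in total RNA was smaller in mtr10 than in msn5 cells for 19 of the 67 genes, larger for none and not called for 48 (limma interaction). Over all genes 3.95% were called smaller and 3.84% larger. The median of this mtr10 minus msn5 difference was -0.53 for the 67 genes and 0.02 for all genes. The named genes that wild-type starvation raised had 113 of 443 (25.5%) called smaller and a median of -0.39, beside 28.4% for the systematically named genes; the difference between these sets was not tested.

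YPL264C, on chromosome XVI beside the amino acid permease gene DIP5, shows the pattern with little replicate spread. It read 10.62 and 10.60 in starved mtr10 cells and 9.42 and 9.56 in fed mtr10 cells, against 11.74 and 11.74 in starved msn5 cells and 9.05 and 9.11 in fed msn5 cells. It rose in both strains, and the rise was smaller in mtr10 by 1.53 ± 0.17 (difference -1.53, adjusted p = 4.48e-06). YOR032W-A read 7.44 and 7.57 in starved mtr10 cells and averaged 6.93 ± 0.10 in fed mtr10 cells (SD, n = 2), against 9.49 and 9.52 in starved msn5 cells and 7.25 and 7.40 in fed msn5 cells (difference -1.60 ± 0.33, adjusted p = 0.00424). Its fed levels were close in the mutants and its starved levels were apart. The other large differences were those of YHL012W (-1.85 ± 0.24), YOL162W (-1.35 ± 0.30) and YNL146C-A (-1.27 ± 0.38, adjusted p = 0.0410). The count fell to 11 when replicate 2 of starved mtr10 total RNA was left out.

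**Figure D3:**
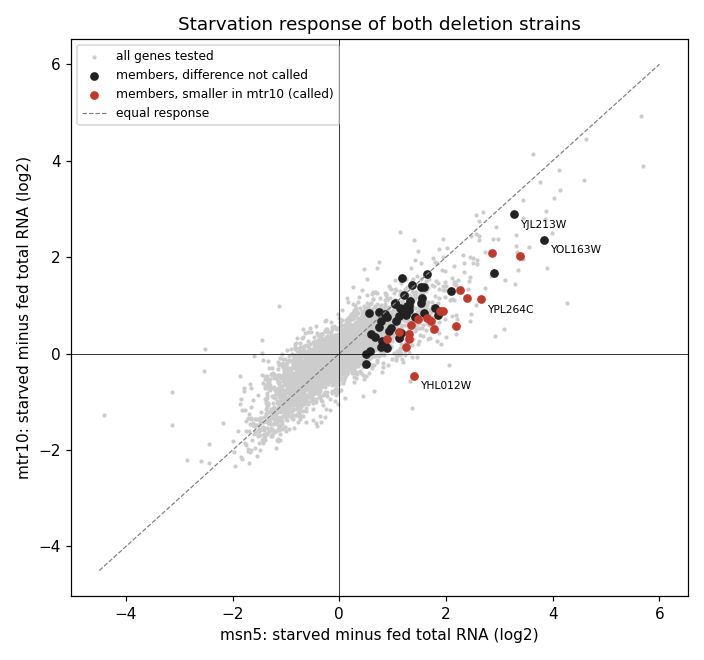
Starved minus fed difference in total RNA (log2 RMA) of the 67 genes, msn5 on the horizontal and mtr10 on the vertical axis, with the line of equal response and all tested genes in grey. Red points are the 19 genes called smaller in mtr10 and black the 48 not called. Below the line lie 59 of the 67 points; the medians are 1.28 in msn5 and 0.81 in mtr10.

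Total RNA of the mutants is set beside that of wild-type cells as values only, because the wild-type arrays chose the genes. Starved mtr10 cells had a median difference from starved wild-type cells of -0.78 over the 67 genes, and fed mtr10 cells 0.17 from fed wild-type cells. Starved msn5 cells had a median of -0.04 from starved wild-type cells, and fed msn5 cells 0.16 from fed wild-type cells. In starved mtr10 cells the values ran from -2.84 (YHR022C) to 0.87 (YKL107W), and in fed mtr10 cells from -1.50 (YHR022C) to 1.67 (YJR149W). In starved msn5 cells they ran from -1.71 (YER085C) to 0.80 (YPR159C-A), and in fed msn5 cells from -1.12 (YCR101C) to 1.15 (YKL107W).

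Polysome RNA was measured on arrays of its own. On starvation, 63 of the 67 genes rose in msn5 polysome RNA, 55 in mtr10 and 63 in wild-type, while 2 fell in mtr10 and none in the others. Of all genes, 34.2% rose and 32.6% fell in msn5, 32.7% rose and 27.2% fell in mtr10, and 36.1% rose and 33.2% fell in wild-type polysome RNA. The medians were 1.45 in msn5, 0.86 in mtr10 and 1.64 in wild-type polysome RNA. If polysome and total RNA came from the same cultures, the wild-type part of these tests is not independent of the choice. YOL162W had the largest wild-type polysome difference, with 12.87 and 12.45 in starved cells, against 7.62 and 8.20 in fed cells (4.75 ± 0.21, adjusted p = 4.53e-14). YOL163W differed by 4.03 ± 0.44, YJL213W by 3.84 ± 0.17, YIL165C by 3.74 ± 0.13 and YOR186W by 3.15 ± 0.20. The genes that fell in mtr10 polysome RNA were YLL053C (-0.53 ± 0.20, adjusted p = 0.0269) and again YHL012W (-0.47 ± 0.17, adjusted p = 0.0184). With MAS5 signals neither was called. YLL053C lost its call when any of the 4 mtr10 polysome arrays was left out (adjusted p = 0.0603 to 0.115), and YHL012W without replicate 1 of starved mtr10 (adjusted p = 0.175) or of fed mtr10 polysome RNA (adjusted p = 0.196). Unlike in total RNA, YHL012W in fed mtr10 polysome RNA, at 7.85 and 7.53, was not below fed wild-type, at 7.47 and 7.08. In starved mtr10 polysome RNA it was below, at 7.08 and 7.35, against 8.32 and 8.69 in starved wild-type.

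The genes not called in msn5 polysome RNA were YMR084W, YGL081W, YLR415C and YJR079W, and those not called in wild-type were YJR154W, YMR084W, YCR101C and YLR415C. YLR415C was not called Present on either fed polysome array of msn5 or wild-type cells, and no fold is given for it: its starved msn5 arrays, at 6.06 and 7.32, lay on both sides of the fed ones, at 6.25 and 6.30. YMR206W was likewise not called Present on either wild-type fed polysome array. By the group means its starved level was 2.59-fold higher (1.38 ± 0.23), an estimate that rests on those fed levels. Over all 34 usable arrays of detection calls, 61 of the 67 genes were Present on each and 6 were not, while 5277 of all 5338 genes were Present on each. In wild-type non-polysome RNA 62 of the 67 genes rose and none fell, against 31.1% of all genes that rose and 1920 of the 5338 genes that fell, with a median of 1.33. Non-polysome medians of 0.99 in msn5 and 0.59 in mtr10 cells were not tested. They use the fed non-polysome arrays on which the deleted genes read highest in their own strain. Across the 6 tests of starvation against feeding, 47 genes (70.1%) were called higher in all and 7 in 5, against 13.9% and 7.08% of all genes. Of the named genes raised in wild-type total RNA, 72.5% were called higher in all 6.

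Polysome levels allowed a test of mutant against wild-type responses. The starvation difference was smaller in mtr10 than in wild-type polysome RNA for 41 of the 67 genes and larger for none, against 9.55% of all genes smaller and 6.84% larger. The median was -0.78, beside 0.02 for all genes. Of the named genes raised in wild-type cells 47.9% were called smaller, which also followed a choice on wild-type values. YOL162W read 10.82 and 10.58 in starved mtr10 polysome RNA and 8.42 and 8.46 in fed mtr10 polysome RNA, against 12.87 and 12.45 in starved wild-type and 7.62 and 8.20 in fed wild-type polysome RNA (difference of differences -2.49 ± 0.30, adjusted p = 6.11e-06). The mutant was lower when starved and slightly higher when fed. YOL163W differed by -2.31 ± 0.62 and YNL146C-A by -2.07 ± 0.38, followed by YOR032W-A (-1.90 ± 0.33) and YER085C (-1.83 ± 0.26). The 19 genes called smaller in mtr10 against msn5 total RNA and these 41 have 18 in common, which is 94.7% of the first list and 43.9% of the second, where 61.2% of the 67 genes are on the second. The tests use different arrays, but their RNA may come from the same cultures.

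In msn5 cells 2 of the 67 genes had a smaller polysome response than in wild-type cells and none a larger one, against 0.880% of all genes smaller and 0.131% larger. YER085C read 6.79 and 6.32 in starved msn5 polysome RNA and 5.35 and 5.42 in fed msn5 polysome RNA, against 8.54 and 8.07 in starved wild-type and 5.68 and 5.63 in fed wild-type polysome RNA (-1.48 ± 0.26, adjusted p = 0.00263). YJR149W, whose product resembles nitronate monooxygenases, read 11.65 and 11.43 in starved msn5 and 10.02 and 10.09 in fed msn5 polysome RNA, against 11.69 and 11.89 in starved wild-type and 9.46 and 9.36 in fed wild-type polysome RNA (-0.90 ± 0.16, adjusted p = 0.00398). YER085C was lower in starved msn5 cells, whereas YJR149W was higher in fed msn5 cells. The fit on the compared groups alone called none of the 67 in this comparison, and 16 at an unadjusted p under 0.05. Without replicate 1 of starved msn5 polysome RNA 8 were called, 4 of them larger, and without replicate 2 of starved wild-type polysome RNA 4 were called.

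Fed cells also differed between strains. In fed mtr10 polysome RNA 23 of the 67 genes were higher and 11 lower than in fed wild-type polysome RNA, against 19.4% of all genes higher and 20.2% lower. The choice of genes used fed wild-type total RNA. If polysome RNA came from the same cultures, that choice favours mutant values above fed wild-type ones. YJR149W was the highest, with 11.49 and 11.37 in fed mtr10 cells, against 9.46 and 9.36 in fed wild-type cells (2.02 ± 0.12, adjusted p = 3.45e-11). YHR140W was the lowest, with 5.91 and 6.32 in fed mtr10 cells, against 8.62 and 8.63 in fed wild-type cells (-2.50 ± 0.21, adjusted p = 6.73e-09). Neither pair of groups overlapped. Also higher were YMR085W (1.26 ± 0.14), YAL064W (1.18 ± 0.22), YBR085C-A (1.17 ± 0.13) and YLR157W-E (1.15 ± 0.15). Lower were YHR022C (-1.87 ± 0.22), YMR262W, a TatD-family nuclease by sequence (-1.22 ± 0.12), YPL113C, which resembles glyoxylate reductases (-1.16 ± 0.14), and YJL163C (-0.69 ± 0.20). The probe set of YLR157W-E, like that of YLR156W, is of a kind that can match several transcripts, and YLR156W has near-identical copies in the genome, so their values may be sums. The 34 called genes became 22 without replicate 1 of fed mtr10 polysome RNA (17 higher, 5 lower) or without replicate 2 of fed wild-type polysome RNA (16 higher, 6 lower), and with MAS5 signals 30 were higher and 7 lower.

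In fed msn5 polysome RNA 11 of the 67 genes were higher than in fed wild-type polysome RNA and none was lower, against 5.47% of all genes higher and 3.69% lower. The choice on fed wild-type total RNA limits this comparison in the same way. With MAS5 signals 21 were called, 20 of them higher, and with the compared groups alone 17. YMR262W read 10.24 and 10.16 in fed msn5 cells, against 9.51 and 9.37 in fed wild-type cells (0.76 ± 0.12, adjusted p = 1.45e-04). It was thus above wild-type in msn5 and below it in mtr10. YLR345W, which resembles 6-phosphofructo-2-kinases, read 10.73 and 10.77 in fed msn5 cells, against 10.00 and 10.03 in fed wild-type cells (0.74 ± 0.11, adjusted p = 1.39e-04). YKL107W differed by 0.93 ± 0.18 and YGL081W by 0.75 ± 0.21. YMR206W was 2.10-fold higher in fed msn5 cells by the group means (1.07 ± 0.23). This estimate rests on wild-type arrays on which it was not Present.

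The polysome to non-polysome ratio compares the share of a transcript found on polysomes with that of other transcripts. In starved wild-type cells 37 of the 67 genes differed from the average transcript in either direction, against 63.1% of all genes. The ratio was below the average for 22 of them and above it for 15, against 34.1% of all genes above and 1549 of the 5338 genes below. Its median was -0.13 for the 67 genes and 0.04 for all genes. In fed wild-type cells the ratio was below that of the average transcript for 30 of the 67 genes and above it for 5, against 24.5% of all genes below and 26.5% above, with a median of -0.30 beside 0.02 for all genes. The fed count above the average was 2 without replicate 2 of fed non-polysome or replicate 1 of fed polysome RNA and 10 with the compared groups alone, and MAS5 signals gave 2 above and 43 below. The other systematically named genes, raised less or not at all, had medians of -0.22 in starved and -0.20 in fed cells.

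The ratio itself changed on starvation. It rose for 28 of the 67 genes and fell for 6, against 23.3% of all genes that rose and 16.4% that fell, with a median change of 0.33 beside 0.08. Among named genes raised by starvation 26.4% rose and 9.26% fell, with a median of 0.26. YKR104W, which joins its neighbour NFT1 into a single ABC transporter gene in other strains, had the largest rise (1.63 ± 0.34, adjusted p = 9.16e-04). It read 9.90 and 9.56 in starved polysome and 7.47 and 7.71 in starved non-polysome RNA, against 8.49 and 8.18 in fed polysome and 7.88 and 7.76 in fed non-polysome RNA. Its starvation difference was seen in polysome RNA, whereas in non-polysome RNA the starved arrays were below the fed ones. That non-polysome difference was not called (-0.24 ± 0.24, adjusted p = 0.396). YOR032W-A (1.33 ± 0.33), YNR065C, a homologue of the sorting receptor Vps10 (1.30 ± 0.24), YMR196W (1.27 ± 0.35) and YER085C (1.25 ± 0.26) followed.

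**Figure D4:**
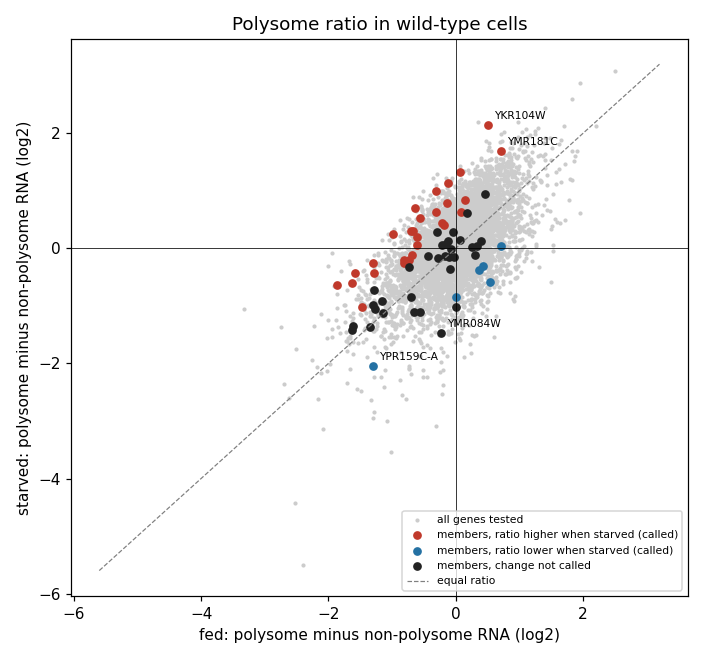
Polysome minus non-polysome difference (log2 RMA) of the 67 genes in wild-type cells, fed on the horizontal and starved on the vertical axis, with the line of equal ratio and all tested genes in grey. Red points are the 28 genes whose ratio rose, blue the 6 whose ratio fell and black the 33 not called. The medians are -0.13 in starved and -0.30 in fed cells, and YKR104W lies highest above the line.

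Among the 6 genes called lower, the ratio fell most for YJR079W, which overlaps BNA2 and AIM24 on the chromosome (-1.12 ± 0.27, adjusted p = 0.00278). It read 7.60 and 7.28 in starved polysome and 8.33 and 7.73 in starved non-polysome RNA, against 7.08 and 6.63 in fed polysome and 6.43 and 6.22 in fed non-polysome RNA. The gene rose in both pools and more so in the non-polysome pool. YGL081W (-0.86 ± 0.30), YMR262W (-0.75 ± 0.17), YHR140W (-0.74 ± 0.29) and YPR159C-A (-0.74 ± 0.29) fell as well, and for YPR159C-A the MAS5 signals gave 0.64. YPR159C-A was Present on only 1 of the 2 wild-type fed polysome arrays, where it read 4.44 and 4.56. Its fall (adjusted p = 0.0485) thus rests on fed levels near the limit of detection. YMR084W had a larger negative change (-1.24) that was not called. The 6 falls became 2 with MAS5 signals and 2 without replicate 1 of starved non-polysome RNA. They became 3 without replicate 2 of fed non-polysome, either fed polysome array or replicate 2 of starved polysome RNA. In starved cells YPR159C-A had the lowest ratio (-2.04 ± 0.21) and YKR104W the highest (2.14 ± 0.24). In fed cells YLR156W had the lowest (-1.87 ± 0.16), ahead of YHR210C, which resembles aldose epimerases (-1.64 ± 0.13), and YHR112C, which resembles cystathionine gamma-synthases, the highest (0.72 ± 0.13).

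YOR302W is not uncharacterised in the biological sense. It is the upstream reading frame of CPA1, which encodes a subunit of the arginine-specific carbamoyl phosphate synthetase, and its peptide is known to stall ribosomes when arginine is plentiful. In wild-type total RNA YOR302W read 13.23 and 12.96 in starved cells, against 10.50 and 10.25 in fed cells, while CPA1 read 13.70 and 13.57 in starved cells, against 12.14 and 12.16 in fed cells. Both were higher when starved, YOR302W by 2.72 and CPA1 by 1.48. In msn5 total RNA the differences were 2.90 for YOR302W and 1.65 ± 0.10 for CPA1, and in mtr10 total RNA 1.67 and 1.35 ± 0.10. The polysome ratio of CPA1 rose on starvation in wild-type cells (0.65 ± 0.14, adjusted p = 9.85e-04). That of YOR302W changed by -0.05 ± 0.41 and was not called, with a larger standard error than that of CPA1. On the starved wild-type polysome arrays YOR302W read 12.65 and 12.05. An upstream reading frame is part of the same mRNA, so the 2 probe sets need not mark separate messages. The difference between the 2 probe sets was not tested.

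Sequence resemblance sorts some of the other genes. This grouping is from background knowledge and was made with the values known. Of 8 genes that resemble membrane transporters or channels, all rose in msn5 total RNA and 5 in mtr10, with wild-type differences of 1.01 to 4.45. They include YPR003C, which resembles sulfate permeases, YCR023C of the multidrug resistance family, which differed by 1.35 ± 0.09 in msn5 and 0.60 ± 0.09 in mtr10 cells, and YGL114W of the oligopeptide transporter family (1.11 ± 0.14 in msn5 and 0.78 ± 0.14 in mtr10). Of 13 genes that resemble enzymes, all rose in msn5 total RNA, and 11 rose and 1 fell in mtr10. YHR112C differed by 1.53 ± 0.13 in msn5 and 1.39 ± 0.13 in mtr10 cells, and YHR210C by 1.31 ± 0.13 and 0.41 ± 0.13. The 45 genes given no role here had 44 that rose in msn5 and 31 in mtr10. In the whole set of 67 genes 66 rose in msn5 and 48 in mtr10, against 28.8% and 24.8% of all genes.

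Chromosomal neighbours were listed from the RefSeq R64 annotation, without coordinates because the build of the array annotation is not given in the sources used here. Of 105 measured neighbours outside the set, 25 (23.8%) were higher by 1 or more in starved wild-type total RNA, as were 8.40% of all genes outside the set. Their median was 0.20. In msn5 total RNA, 41 of them (39.0%) rose and 28 fell, against 28.8% of all genes that rose and 32.2% that fell. BDS1, a sulfatase gene beside YOL163W, differed by 2.84 ± 0.20 in msn5 and 1.61 ± 0.20 in mtr10 cells. NIT1 beside YIL165C differed by 3.32 ± 0.18 in msn5 and 2.23 ± 0.18 in mtr10 cells, and BSC5 beside YNR068C by 2.56 ± 0.37 and 1.01 ± 0.37. These neighbours rose in both mutants. NFT1 beside YKR104W differed by 0.64 ± 0.25 in msn5 (adjusted p = 0.0295) and 0.06 ± 0.25 in mtr10 cells. KEL3, on the other side of YPL264C from DIP5, had a wild-type difference of -2.06. YMR084W and YMR085W, neighbours within the set whose products together resemble the glucosamine synthesis enzyme Gfa1, differed by 1.42 ± 0.54 and 1.59 ± 0.14 in msn5 and by 0.75 ± 0.54 and 1.38 ± 0.14 in mtr10 cells. For 4 genes of the set a neighbour overlaps them on the chromosome (YCR099C, YHR022C, YLL053C and YJR079W), and signal from the overlapping gene was not separated.

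Profiles over the means of the 16 groups that the choice did not use were compared with those of named genes by Pearson's r. These values describe likeness only, since the 16 points share strains, pools and the starvation contrast. The profile most like YOL163W was that of NIT1 (r = 0.987), and the next were those of ARG8 (0.977) and GTO1 (0.977). For YOL162W it was AGP3, an amino acid permease gene (0.984), then BDS1 (0.974) and CAT2 (0.973). For YJL213W it was LSB6 (0.985), then CIT3 (0.979) and TMT1 (0.973). YIL165C was most like VHT1, the biotin transporter gene (0.988), TRR2 (0.984) and NIT1 (0.982). YOR186W was most like TYR1 (0.979), ERG7 (0.976) and SNO4 (0.974), and YPL264C most like AGP3 (0.976), MRK1 (0.973) and BDS1 (0.973).

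The mean profiles of 6 lists of known pathway genes gave a broader view. The arginine synthesis profile was the closest for 36 of the 67 genes, the general stress profile for 14, the MATa-specific profile for 6, sulfate assimilation and nitrogen catabolite repression for 4 each and lysine and histidine synthesis for 3. The median r over the 67 genes was 0.799 for arginine, 0.767 for sulfate assimilation, 0.702 for MATa-specific genes, 0.698 for nitrogen catabolite repression, 0.655 for lysine and histidine and 0.603 for general stress. The lists were chosen with results of these data known. The tally of closest profiles was not made for other genes raised by starvation, so it marks no trait particular to the 67. In total RNA, where 28.8% of all genes rose in msn5 and 24.8% in mtr10, 8 of 8 arginine genes rose in each. ARG3 differed by 3.99 in msn5 and 2.50 in mtr10. Of 30 sulfate assimilation and methionine genes 29 rose in msn5 and 28 in mtr10. Their mtr10 minus msn5 difference had a median of -0.19, and none was called smaller, against 3.95% of all genes. Of 39 general stress genes 27 rose in each mutant, of 24 nitrogen catabolite genes 19 rose in msn5 and 21 in mtr10, and of 14 lysine and histidine genes 12 and 9. The 7 MATa-specific genes, normally silent in cells of the alpha mating type to which BY4742 belongs, were called higher in 7 cases in msn5 and in 4 in mtr10. Their mtr10 minus msn5 difference was called smaller for 5, with MFA2 at -3.22, and their part in the values of the 67 genes was not tested.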

How the data were processed

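Log2 RMA values of 5684 probe sets on 36 arrays were used as deposited. Per the submitters' processing notes they were made with RMA and the affy package, versions not given in the sources used here. MAS5 signal intensity values and detection p-values deposited by the authors gave an alternative and the Present calls; 2 of the MAS5 columns, labelled wild-type total RNA, resembled the arrays of the opposite condition and were left out, which left 34. Each gene was represented by the probe set with the highest mean. limma 3.58.1 in R 4.3.3 fitted 1 mean per group on all 36 arrays (18 residual and 3.92 prior degrees of freedom), with two-sided tests and Benjamini-Hochberg adjustment over 5338 genes in each of 14 comparisons, at a threshold of 0.05. Errors are standard errors of the fit. The labels do not say that replicate numbers mark shared cultures. Deviations of same-numbered arrays correlated from -0.50 to 0.63 over 15 pairs of groups and by over 0.1 in 10 of them, so pairing is not settled; the fit has no block, and the closing section gives the counts with it.

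Members, gene lists and comparisons were chosen with earlier results of these data known. Named genes are the 10 largest in wild-type total RNA, up to 5 per direction among those called in each comparison, those not called in a mutant, the 3 on either side of the threshold, likeness and neighbours; genes of the resemblance groups and CPA1 were added after their values were seen. Alternatives were MAS5 signals, the compared groups alone, a replicate block, the mean of probe sets, filters on detection, a trended robust prior and each array left out; leaving out the mutant fed non-polysome arrays was added after seeing the data. The fits were tested on simulated data. Promoter motifs and protein sequences were not analysed here. P-values measure the spread between arrays labelled as biological replicates.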

Additional observations from a re-analysis of the deposited data

Results flagged for a closer look

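These results concern a response to starvation that differed between strains, by the limma interaction with Benjamini-Hochberg adjustment. The total RNA response was smaller in mtr10 than in msn5 cells for 19 of the 67 genes, by differences of -1.85 (YHL012W), -1.60 (YOR032W-A), -1.53 (YPL264C), -1.35 (YOL162W) and -1.27 (YNL146C-A) at the extreme. The polysome response was smaller in msn5 than in wild-type cells for 2 genes, YER085C (-1.48) and YJR149W (-0.90). It was smaller in mtr10 than in wild-type cells for 41 genes, led by YOL162W (-2.49), YOL163W (-2.31), YNL146C-A (-2.07), YOR032W-A (-1.90) and YER085C (-1.83). Selection on the wild-type response favours smaller values in the comparisons with wild-type, and how much of them it accounts for was not tested.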

How the results depend on the processing

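Of 95 values for named genes, recomputed 1215 times in all, 1137 stayed on the same side of the threshold, 73 lost the call, 1 gained it and 4 were called values that changed sign. Some of the 1137 were bound to stay. The detection filter removed no gene, so the fit without it repeated the main fit. None of the 67 genes had several probe sets, so the mean of probe sets left their differences unchanged. Within the 1137, 6 changes of sign concerned 3 values not called in mtr10 total RNA, those of YGL081W, YLR415C and YJR079W, with MAS5 signals or an array left out. The 4 came with MAS5 signals: YHL012W in mtr10 total RNA (0.06), YJR079W (-0.42, adjusted p = 0.0297) and YPL113C (-0.036) in the fed polysome ratio, and YPR159C-A in the ratio change (0.64); the cause was not tested. The 67 members became 33 at a threshold of 1.5 and 87 at 0.8. They became 85, with 61 of the 67 among them, for MAS5 signals with 1 starved and 1 fed array, since a column of each was left out. For msn5 against wild-type fed polysome RNA, the 11 calls became 21 with MAS5 and 17 with the compared groups alone. For the msn5 minus wild-type polysome response, the 2 calls became 4 with MAS5, 1 with genes Present on all arrays and 0 with the compared groups alone (16 at an unadjusted p under 0.05). Leaving out each array in turn gave 64 to 72 members. Called genes then ranged from 60 to 63 in msn5 total, 44 to 46 in mtr10 total, 57 to 66 in msn5 polysome, 48 to 52 in mtr10 polysome, 60 to 64 in wild-type polysome and 58 to 60 in wild-type non-polysome RNA. They ranged from 30 to 33 for the starved ratio, 28 to 32 for the fed ratio, 24 to 30 for its change, 11 to 16 for mtr10 minus msn5, 8 to 9 and 22 to 30 for the fed polysome level in msn5 and mtr10, and 2 to 8 and 28 to 39 for their polysome responses. The 8 came without replicate 1 of starved msn5 polysome RNA (4 higher, 4 lower), 4 without replicate 2 of starved wild-type polysome RNA, and 22 without replicate 1 of fed mtr10 or replicate 2 of fed wild-type polysome RNA. With the replicate block the counts were 66 and 50 for msn5 and mtr10 total RNA, 21 for mtr10 minus msn5, 3 and 43 for the polysome responses; no count moved by over 1.5 times.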

Other observations

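Some of the 67 genes varied between replicate arrays of starved polysome RNA. In msn5 cells 8 of them differed by over 1 between the replicates, and 7 of the 8 were higher on replicate 2; over all 5338 genes 3.13% differed by as much. The 7 were YMR084W (2.94), YJR154W (2.17), YCR101C (2.11), YOL163W (1.96), YNL194C (1.87), YOR302W (1.49) and YLR415C (1.26). The same 7 differed the other way in starved wild-type polysome RNA, from -1.30 for YMR084W to -0.56 for YLR415C. In starved mtr10 polysome RNA none of the 67 genes and only 1 of all 5338 differed by over 1. The 7 genes were singled out after their values were seen.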
